A study of Mus musculus with 31 samples.

Results

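A set of 10 genes of the NF-κB system was followed in mouse Th17 cells, by culture treatment and by genotype. They were the subunit genes Nfkb1, Rel, Nfkb2 and Relb, the IκB genes Nfkbia, Nfkbid and Nfkbiz, the A20 gene Tnfaip3, and the genes of 2 further signalling regulators, Birc3 and Traf1. The members were taken as a list of gene names, drawn up with earlier results of these data known, and all 10 were among the 31053 gene symbols of each of 3 count tables. All 10 also passed the filter on low counts in each table, which left 10332 genes in the culture experiment, 10125 in the Cyp11a1 experiment and 10597 in the GR experiment.

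NF-κB factors are dimers of Rel-family proteins that IκB proteins hold in the cytoplasm until kinases mark the inhibitors for destruction. In the canonical arm, the products of Nfkb1, Rela and Rel enter the nucleus after signals from antigen receptor, cytokine or Toll-like receptors, whereas in the noncanonical arm the precursor protein made from Nfkb2 is processed and acts with the product of Relb. Several targets of the pathway, among them Nfkbia and Tnfaip3, encode its own inhibitors, and glucocorticoids are widely known as antagonists of NF-κB-driven transcription in lymphocytes.

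The study sequenced polyadenylated RNA of 31 libraries, each from 2000 sorted Th17 cells. In the culture experiment, Th17Inf cells from spleen and dLN of WT (C57/B6) mice were left untreated (Ctrl) or given dexamethasone (Dex), a synthetic glucocorticoid, TGF-β1, or both agents, for 2 days, with 3 libraries in each of the 4 groups. In the other experiments, naive 2D2+ T cells of Cyp11a1 WT (4 libraries), Cyp11a1 cKO (6), GR WT (5) or GR cKO (4) mice were turned into Th17Hom cells, transferred into Rag1 KO recipients, which lack mature lymphocytes, and sorted from the CNS at the peak of experimental autoimmune encephalomyelitis (EAE). Every CNS group therefore shares the 2D2+ background, the Rag1 KO host and the disease. CYP11A1 is the enzyme that starts steroid synthesis from cholesterol, and GR is the glucocorticoid receptor, encoded by Nr3c1. The labels give neither the doses in culture nor the driver of either conditional deletion, nor the ages of the mice, nor whether libraries came from separate cultures or recipients, so p-values measure the spread among these libraries.

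Library totals ran from 2769203 to 4291149 counts in culture, from 4322688 to 5118543 in the Cyp11a1 experiment and from 3552871 to 5623305 in the GR experiment. Nr3c1 lay between 13.0 and 18.8 CPM (counts scaled by library size and edgeR's TMM factor) in the GR WT libraries and between 6.76 and 10.2 CPM in the GR cKO libraries, without overlap. The Cyp11a1 gene had 0 counts in all 4 WT and 5 of the 6 cKO libraries of its experiment and 4 counts in cKO 2, against the direction of the label. A count of 0 allows up to 3 counts, or at most 0.795 CPM, so the deletion could not be checked there. All 10 T cell markers had counts in every library. The summed level of 26 myeloid and microglia markers was 315.7 to 429.9 CPM in culture, where Csf1r, Itgam, Adgre1, C1qa and Trem2 were at 0 in every library. It was 1140 to 1245 CPM in Cyp11a1 WT, 1318 to 2320 CPM in Cyp11a1 cKO, and 9300 to 29957 CPM in the GR experiment, where all 26 markers had counts in every library. In the Cyp11a1 experiment 24 of the 26 markers had counts in every library. The libraries of both CNS experiments thus held RNA of myeloid marker genes beside that of T cell markers. In bulk samples fewer cells of a type and less RNA per cell cannot be told apart.

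Because several of these genes are known targets of the factors they encode, their promoters were read for κB sites, the sequences that NF-κB dimers bind. RefSeq promoters (build GRCm38.p6), running from 250 bases before to 50 bases after a transcript start, were at hand for 7 of the 10 members, 12 promoters in all, and not for Nfkb1, Relb and Nfkbiz. The 4 windows below belong to 3 members that passed the test in culture and to Nfkbia, the gene of the classical inhibitor IκBα. Each is given 5′ to 3′ on the strand of its gene, and the capitals mark the matched bases.
Nfkb2: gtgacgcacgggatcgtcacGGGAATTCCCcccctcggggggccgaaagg
Rel: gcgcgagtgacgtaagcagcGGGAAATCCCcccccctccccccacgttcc
Tnfaip3: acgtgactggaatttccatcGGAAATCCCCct
Nfkbia: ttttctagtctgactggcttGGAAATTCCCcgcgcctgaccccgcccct
The windows lie at chr19:46304678-46304727 (plus strand) for Nfkb2, chr11:23771032-23771081 (minus strand) for Rel, chr10:19015411-19015442 (minus strand) for Tnfaip3 and chr12:55492648-55492696 (minus strand) for Nfkbia. The matches start 39, 92, 12 and 29 bases before the annotated start, in that order.

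The site was searched in 3 spellings on both strands. The strictest, GGGA and TTCC parted by any 2 bases, was in 3 of the 12 member promoters (1 of Nfkbia and 2 of Nfkb2), against 1.47% of all 32851 promoters in the table. These 2 promoters of Nfkb2 overlap and share 1 of their matches, so by gene it was in 2 of 7 members. The looser spelling, GGGA and CC parted by any 4 bases, which contains every match of the first, was in 9 of 12, from 6 of the 7 members (all but Traf1), against 20.7% of all promoters. The κB consensus, added after the sequences had been seen, was in 7 of 12, from 5 members, against 8.46%. The capitals of Nfkb2 and Rel match the looser spelling and the consensus on both strands, those of Nfkbia match all 3 spellings on the opposite strand, and those of Tnfaip3 match the consensus alone, on the opposite strand. The glucocorticoid response element, searched as GNACA and TGTNC parted by any 3 bases, was in 0 of the 12 windows and in 0.475% of all promoters. A match, or its absence, describes only the letters of these windows.

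In untreated Th17Inf cells the level per kilobase of exon placed Nfkbia far above the other members, at 323 ± 27.1 CPM per kb (SD, n = 3). Traf1, the gene of a TNF receptor adaptor, came next at 31.8 CPM per kb, followed by Nfkb2 at 24.2, Relb at 13.2 and Birc3 at 12.9 CPM per kb, the libraries of Relb and Birc3 overlapping. Tnfaip3 lay at 9.74, Nfkb1 at 7.01 and Nfkbid at 4.37 CPM per kb, each without overlap with its neighbours. Nfkbiz at 1.77 and Rel at 1.40 CPM per kb were the lowest and overlapped. Rel, Nfkbid and Nfkbiz thus rested on few reads, 17 to 43, 20 to 46 and 17 to 139 counts per culture library. Nfkb2 shares 11.58% of its exon bases with the opposite-strand RNA gene AC114539.1 and 6.52% with Psd, and the libraries keep no strand, so reads from these bases cannot be told apart. No other member overlaps an annotated exon of another gene. On GRCm38, in GENCODE M21, the members that passed a test below lie at chr19:46304320-46312385 (Nfkb2), chr7:19606217-19629438 (Relb), chr11:23736847-23770970 (Rel), chr16:55811375-55838899 (Nfkbiz) and chr10:19000910-19015657 (Tnfaip3).

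**Figure D1:**
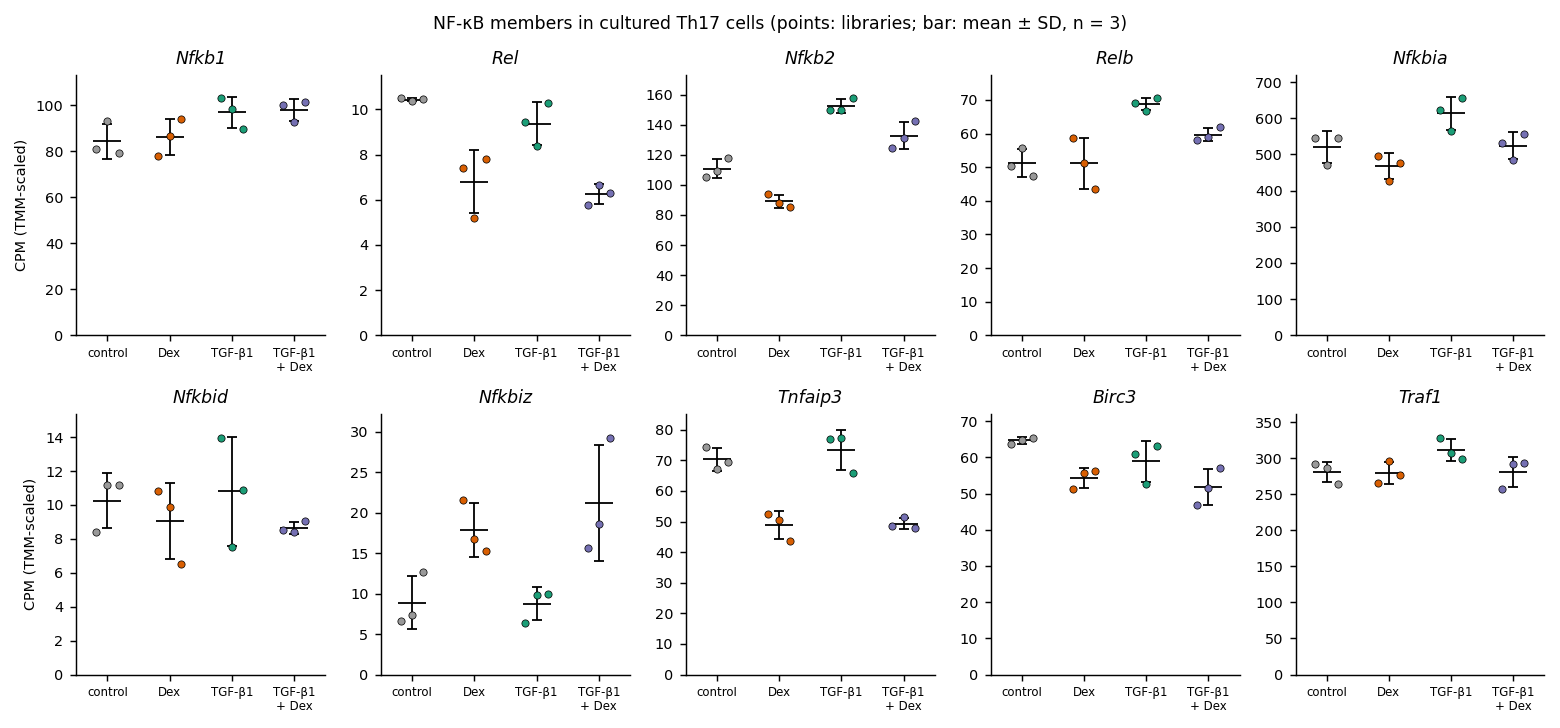
Level of each member (y axis, CPM scaled by TMM) in the 4 culture groups (x axis), with 1 point per library and bars at the mean ± SD (n = 3). Tnfaip3 lies between 43.6 and 52.5 CPM in all 6 Dex-treated libraries and above 65 CPM in the other 6, and Nfkb2 is highest in the 3 TGF-β1 libraries.

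Dexamethasone lowered 1 member, Tnfaip3, whose product A20 edits ubiquitin chains to end NF-κB signalling. Tnfaip3 read 74.5, 67.3 and 69.4 CPM in the Ctrl libraries and 52.5, 50.6 and 43.6 CPM in the Dex libraries. The groups did not overlap, and the means were 70.4 ± 3.71 and 48.9 ± 4.69 CPM (SD, n = 3 each). Its log2 fold change was -0.52 ± 0.10 (SE), with an adjusted p of 0.0159 by edgeR's quasi-likelihood test with Benjamini-Hochberg adjustment over all genes tested, the test used for every adjusted p here. So 1 of 10 members was lower, against 0.91% of all genes, and 0 of 10 were higher, against 0.919%. The call is lost when any of Ctrl 1, Ctrl 3, Dex 2 or Dex 3 is left out, with adjusted p between 0.0502 and 0.0694 and log2 values still below 0.

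The subunit genes Rel and Nfkb2 also stood lower in every Dex library than in every Ctrl library, without passing the test. Rel, the gene of c-Rel, a subunit prominent in lymphocytes, read 10.5, 10.4 and 10.5 CPM in Ctrl and 7.41, 5.20 and 7.80 CPM in Dex, a log2 value of -0.62 ± 0.18 (edgeR adjusted p = 0.124). Nfkb2 read 105, 109 and 118 CPM in Ctrl and 93.8, 88.1 and 85.2 CPM in Dex, a log2 value of -0.32 ± 0.07 (edgeR adjusted p = 0.0525). Neither of their partners Nfkb1 and Relb was near the threshold, with log2 values of 0.03 ± 0.09 and 0.00 ± 0.11.

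Of the IκB genes, Nfkbiz stood apart in the other direction. Its product IκBζ acts in the nucleus as a cofactor at selected NF-κB targets and takes part in Th17 differentiation. Nfkbiz read 6.65, 7.36 and 12.7 CPM in Ctrl and 21.6, 16.7 and 15.3 CPM in Dex. The groups did not overlap, but the log2 value of 0.98 ± 0.29 did not pass (edgeR adjusted p = 0.134). Nfkbia was at -0.16 ± 0.08 (edgeR adjusted p = 0.449) and Nfkbid, the gene of the nuclear protein IκBNS, at -0.19 ± 0.24, both with overlapping libraries. Birc3, the gene of the ubiquitin ligase cIAP2, lay below every Ctrl library in every Dex library (63.7 to 65.5 against 51.2 to 56.3 CPM) at a log2 value of -0.25 ± 0.10 (edgeR adjusted p = 0.266), and Traf1 was at 0.00 ± 0.07. Libraries of 5 of 10 members did not overlap between the groups, against 19.3% of all genes. The median log2 value was -0.17 over the members and 0.00 over all genes tested.

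TGF-β1 raised both noncanonical subunit genes. Nfkb2 read 105, 109 and 118 CPM in Ctrl and 150, 150 and 158 CPM with TGF-β1, and Relb read 50.4, 55.6 and 47.5 CPM in Ctrl and 69.1, 66.8 and 70.5 CPM with TGF-β1. Neither gene overlapped between the groups. Nfkb2 rose by 0.46 ± 0.07 on the log2 scale (edgeR adjusted p = 0.00328) and Relb by 0.43 ± 0.11 (edgeR adjusted p = 0.0469). So 2 of 10 members were higher, against 1.93% of all genes, and 0 of 10 were lower, against 1.36%. The Relb call is lost without any 1 of the 6 libraries, with adjusted p between 0.0572 and 0.17. It is also lost by DESeq2 (adjusted p = 0.0707), without the low-count filter (0.0654) and with a replicate block (0.0634). The same holds with the compared groups alone (0.0582) and without a scaling factor (0.212). Relb thus passed in 4 of 15 alternatives. The Nfkb2 call held in all 6 fits with a library left out and is lost when no scaling factor is used (adjusted p = 0.142).

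The other members did not pass with TGF-β1. Nfkbia read 545, 470 and 546 CPM in Ctrl and 621, 565 and 655 CPM with TGF-β1, a log2 value of 0.24 ± 0.08 (edgeR adjusted p = 0.173) without overlap. It passed in 1 of 15 alternatives, the edgeR fit with a replicate block (adjusted p = 0.0132). Nfkb1, which encodes the precursor of p50, the partner of RelA and c-Rel, was at 0.20 ± 0.09 (edgeR adjusted p = 0.352) with overlapping libraries. Traf1 at 0.15 ± 0.07, Rel at -0.16 ± 0.18 and Birc3 at -0.14 ± 0.10 did not overlap between the groups, while Nfkbid, Nfkbiz and Tnfaip3 lay between -0.03 and 0.06 and overlapped. In all, libraries of 6 of 10 members did not overlap, against 21% of all genes. The median log2 value was 0.11 over the members and 0.00 over all genes.

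The combination of TGF-β1 and dexamethasone changed 3 members against Ctrl, the group that all comparisons with untreated cells share. Tnfaip3 read 48.6, 51.4 and 48.0 CPM and fell by 0.51 ± 0.10 on the log2 scale (edgeR adjusted p = 0.00646). Rel read 5.78, 6.65 and 6.32 CPM and fell by 0.74 ± 0.19 (edgeR adjusted p = 0.0325). Nfkbiz read 15.6, 18.5 and 29.3 CPM and rose by 1.25 ± 0.29 (edgeR adjusted p = 0.0206). None of the 3 overlapped with its Ctrl libraries given above.

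Thus 2 of 10 members were lower, against 3.14% of all genes, and 1 was higher, against 3.12%. The Tnfaip3 call held in every alternative run. The Rel call, at 17 to 43 counts a library, is lost without any 1 of the 6 libraries (adjusted p between 0.0655 and 0.11). It is also lost by DESeq2 (adjusted p = 0.276), without the low-count filter (0.103), without a scaling factor (0.0754) and with the compared groups alone (0.06). Rel thus passed in 4 of 14 alternatives. The Nfkbiz call is lost without Ctrl 1, without Ctrl 2 or without the third library of the combination, which holds its highest value, with adjusted p of 0.0807, 0.0854 and 0.106.

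Nfkb2 under the combination, at 124, 131 and 143 CPM, lay above every Ctrl library and below every TGF-β1 library. Its log2 value against Ctrl was 0.26 ± 0.07 (edgeR adjusted p = 0.0542), and it passed in 5 of 15 alternatives, with adjusted p between 0.0251 and 0.0497. Relb, at 58.2, 59.1 and 61.9 CPM, held the same position, at 0.23 ± 0.11 against Ctrl (edgeR adjusted p = 0.277). Birc3 was at -0.31 ± 0.10 (edgeR adjusted p = 0.0839), and Nfkb1, Nfkbia, Nfkbid and Traf1 overlapped with Ctrl. Libraries of 6 of 10 members did not overlap, against 23.6% of all genes.

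Taking TGF-β1 as given, the addition of dexamethasone again lowered Tnfaip3, from 77.1, 77.5 and 66.0 to 48.6, 51.4 and 48.0 CPM. The fall was 0.58 ± 0.10 on the log2 scale (edgeR adjusted p = 0.0198), and 1 of 10 members was lower, against 0.223% of all genes, with 0 higher, against 0.31%. This call is lost without any 1 of 5 libraries, all but the third TGF-β1 library, with adjusted p between 0.0508 and 0.0989. Nfkbiz, at 6.42, 9.83 and 9.99 CPM with TGF-β1 alone, was higher in every library of the combination at 1.28 ± 0.29 (edgeR adjusted p = 0.0893), a value that passed by DESeq2 alone (adjusted p = 0.0314). Rel at -0.58 ± 0.19, Nfkbia at -0.23 ± 0.08, Nfkb2 at -0.20 ± 0.07, Relb at -0.20 ± 0.11 and Traf1 at -0.15 ± 0.07 were below every TGF-β1 library without passing. That made 7 of 10 members without overlap, against 15.2% of all genes.

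Taking dexamethasone as given, the addition of TGF-β1 raised 1 member, Nfkb2, from 93.8, 88.1 and 85.2 to 124, 131 and 143 CPM. The groups did not overlap, and the rise was 0.58 ± 0.07 on the log2 scale (edgeR adjusted p = 0.00102), so 1 of 10 members was higher, against 1.46% of all genes, and 0 lower, against 1.16%. The call holds without any 1 library and is at an adjusted p of 0.0502 when no scaling factor is used. Tnfaip3 was at 0.01 ± 0.10, Rel at -0.11 ± 0.20 and Relb at 0.23 ± 0.11 (edgeR adjusted p = 0.409) in this comparison, each with overlapping libraries. Nfkb2 was also the 1 member of 10 without overlap, against 18.4% of all genes.

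Whether the agents acted on a member other than additively on the log2 scale was tested by the interaction term. It called 0 of 10 members and 0% of all 10332 genes by edgeR. At an unadjusted p under 0.05 there were 0 members and 552 genes, and DESeq2 called 6 genes, of which 0 were members. The interaction was -0.05 ± 0.14 for Tnfaip3, 0.12 ± 0.10 for Nfkb2, -0.20 ± 0.15 for Relb, 0.31 ± 0.42 for Nfkbiz and 0.04 ± 0.27 for Rel. The errors of the last 2 leave room for sizeable departures from additivity at this depth.

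**Figure D2:**
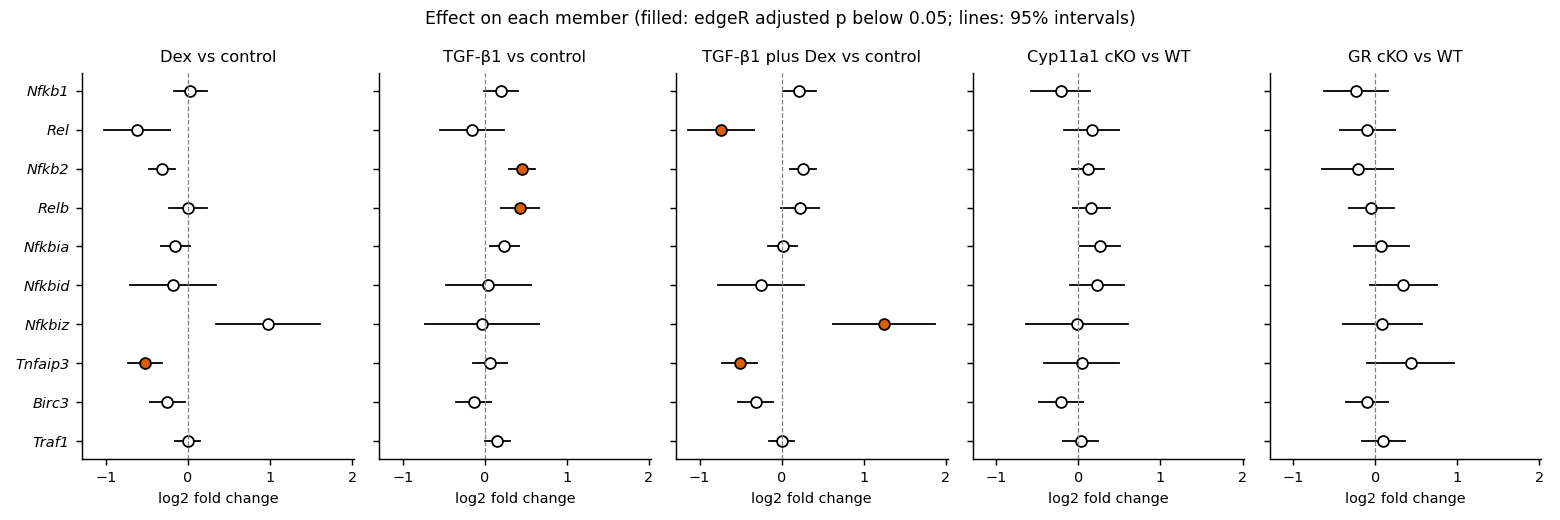
Log2 fold change of each member (x axis; y axis: the member) in 3 culture comparisons and 2 genotype comparisons, with lines for 95% intervals and filled points where the edgeR adjusted p is below 0.05. Filled points are Tnfaip3 with Dex, Nfkb2 and Relb with TGF-β1, and Rel, Nfkbiz and Tnfaip3 with both agents, and no point is filled for either genotype.

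The other genes of the pathway were read from 4 lists. Among the remaining subunit and IκB genes (Rela, Nfkbib, Nfkbie and Bcl3), 0 of 4 passed with dexamethasone (1 at an unadjusted p under 0.05), 0 of 4 with TGF-β1 (1) and 0 of 4 with the combination (0). Of all 10332 genes, 1364, 1547 and 1942 had an unadjusted p under 0.05 in these comparisons, in that order. Rela, the main transactivating subunit, was at 34.5 ± 2.18 CPM in Ctrl, 29.5 ± 0.949 with Dex, 36.8 ± 3.27 with TGF-β1 and 33.3 ± 2.8 with both (SD, n = 3 each).

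Of 18 measured receptor and adaptor genes, Cd40 moved in opposite directions with the single agents. Cd40, a costimulatory TNF receptor best known on antigen-presenting cells, fell by 1.00 ± 0.22 with dexamethasone (from 14.0 to 7.05 CPM, edgeR adjusted p = 0.0396), the 1 gene of this list to pass. With TGF-β1 it rose by 0.96 ± 0.19 (to 27.4 CPM), and so did the TNF receptor gene Tnfrsf1b (0.63 ± 0.13) and the adaptor gene Traf6 (0.58 ± 0.09). With both agents Traf6 (0.70 ± 0.09) and Tnfrsf1b (0.63 ± 0.13) rose and the costimulatory receptor gene Tnfrsf9 fell by 0.26 ± 0.06. So with dexamethasone 1 of 18 was lower, against 0.91% of all genes, and with TGF-β1 3 were higher, against 1.93%. With both agents 2 were higher, against 3.12%, and 1 was lower, against 3.14%.

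Among 12 further negative regulators, the 2 A20-binding protein genes that passed went opposite ways. Tnip2 rose with dexamethasone by 0.74 ± 0.09 (from 93.3 to 156 CPM, edgeR adjusted p = 0.000782), with TGF-β1 by 0.48 ± 0.09 and with both by 0.91 ± 0.09. Tnip3 fell with TGF-β1 by 2.14 ± 0.28 (from 27.4 to 6.03 CPM, edgeR adjusted p = 0.000735) and with both by 1.85 ± 0.27. N4bp1, a further inhibitor of the pathway, rose with both agents, by 1.38 ± 0.25 from 2.17 to 5.68 CPM. Of the 12, 1 was higher with dexamethasone, against 0.919% of all genes. With TGF-β1 1 was higher, against 1.93%, and 1 was lower, against 1.36%. With both agents 2 were higher, against 3.12%, and 1 was lower, against 3.14%.

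Target genes moved in both directions. With dexamethasone 5 of 19 measured targets fell and 1 rose, against 0.91% and 0.919% of all genes. Il2, the T cell growth factor gene, fell by 2.23 ± 0.38 (78.4, 78.0 and 114 CPM in Ctrl and 12.7, 23.8 and 21.1 CPM in Dex, edgeR adjusted p = 0.0127). Tnf fell by 0.90 ± 0.18, the stress-response gene Gadd45b by 0.90 ± 0.21 and the survival gene Bcl2l1 by 0.45 ± 0.09. The activation marker Cd69 rose by 0.72 ± 0.13. The list's median log2 value was -0.24, beside 0.00 over all genes.

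With TGF-β1 3 of 19 targets rose, against 1.93% of all genes, and 0 fell, against 1.36%. At an unadjusted p under 0.05 there were 10 of the 19 targets and 1547 of all 10332 genes. Lta, the lymphotoxin-α gene, rose by 1.53 ± 0.06, from 220, 234 and 220 to 676, 635 and 633 CPM (edgeR adjusted p = 1.38e-08). Its partner Ltb rose by 0.38 ± 0.06, and Cd69 by 0.63 ± 0.13. Dexamethasone on top of TGF-β1 lowered Lta by 0.56 ± 0.05, to 444, 413 and 463 CPM, and it was the only 1 of the 19 to pass in that comparison, in which 0.223% of all genes were lower.

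Against Ctrl, the combination raised 5 of 19 targets, against 3.12% of all genes, and lowered 1, against 3.14%, which was Il2, by 1.45 ± 0.35. The largest rises were those of Il23a, the gene of an interleukin-23 subunit (2.15 ± 0.35), Lta (0.97 ± 0.06), Cd69 (0.84 ± 0.13) and the superoxide dismutase gene Sod2 (0.71 ± 0.11). TGF-β1 on top of dexamethasone raised 4 of 19 targets, against 1.46% of all genes, namely Lta (1.34 ± 0.06), the adhesion gene Icam1 (0.47 ± 0.09), Bcl2l1 (0.37 ± 0.09) and Ltb (0.28 ± 0.06). The interaction called 0 genes of the 4 lists (7 of 53 measured had an unadjusted p under 0.05, beside 552 of all 10332 genes).

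**Figure D3:**
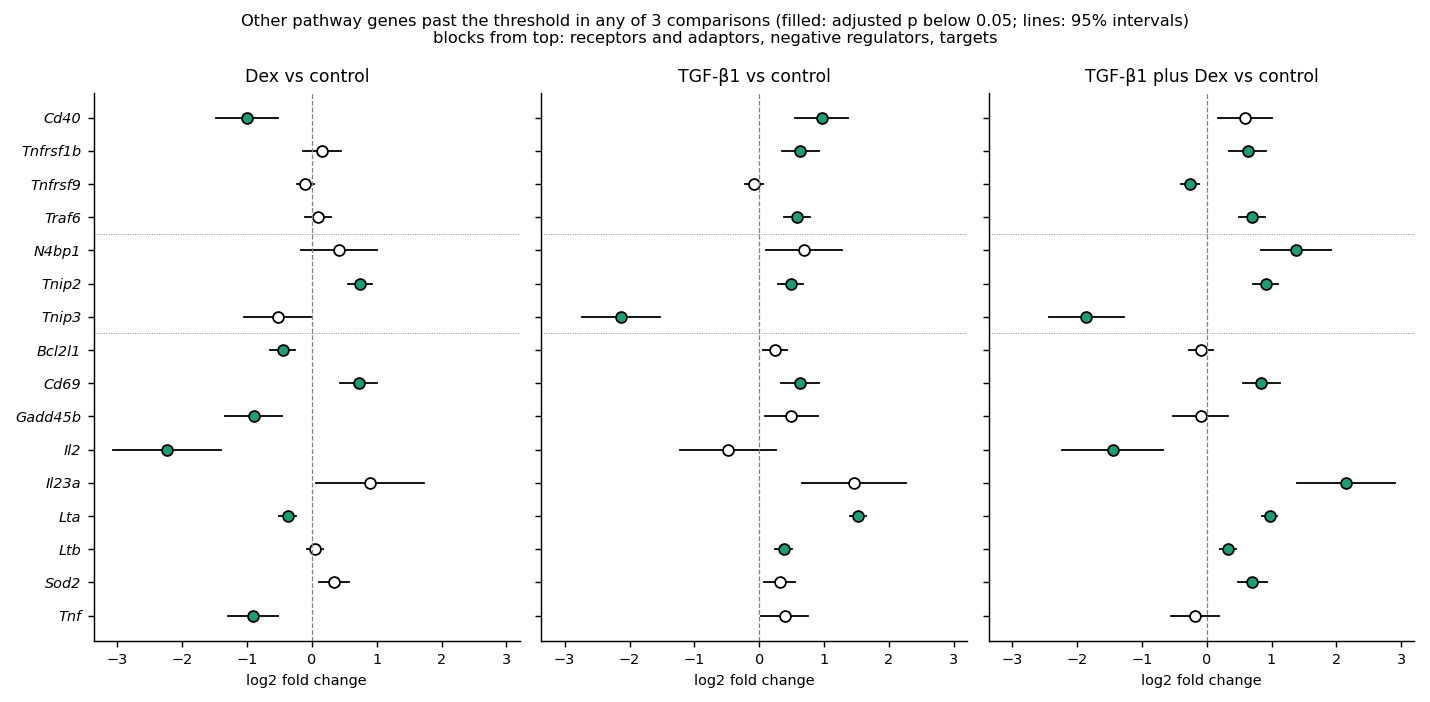
Log2 fold change (x axis) of the 16 genes of the 4 lists (y axis) that passed in any of 3 culture comparisons with Ctrl, with lines for 95% intervals and filled points where the edgeR adjusted p is below 0.05. Blocks from the top are receptors and adaptors, negative regulators and targets, and with TGF-β1 the largest rise shown is that of Lta and the largest fall that of Tnip3.

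The likeness of members was described by the Pearson r of their log2 CPM values across the 12 culture libraries. Nfkb2 went with Relb at 0.825 and with Nfkbia at 0.811. Rel went with Birc3 at 0.787 and with Tnfaip3 at 0.771. Nfkbiz ran against Tnfaip3 at -0.83 and against Rel at -0.75. These values describe 12 libraries that share 4 treatments, depth and scaling, so they are given without a p.

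The genes most like each called member over the same 12 libraries, among 4969 genes whose mean log2 CPM was 4 or more, were also read. For Nfkb2 these were the phosphatase gene Dusp4 (r = 0.984) and the potassium channel gene Kcnn4 (0.971), and for Relb they were Abi3 (0.921) and Sema4d (0.906). For Tnfaip3 they were Sh2d2a (0.922) and H2-DMa (0.907), for Rel Srp54c (0.946) and Sirt2 (0.921), and for Nfkbiz Commd8 (0.925) and Ptpn1 (0.915). Nfkbia was most like Stra6 (0.965) and Timd2 (0.963), Birc3 like Fam162a (0.953) and Ddx47 (0.91), Nfkb1 like Atad2 (0.872) and Acot8 (0.862), and Nfkbid like Plin3 (0.845) and Jmjd8 (0.831). The lowest best match of any member was that of Traf1, with Uxt at 0.778, followed by Gnb4 at 0.756. These are the highest values among 4969 genes over only 12 libraries, so high r can arise from the selection alone. They are likewise given without a p.

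**Figure D4:**
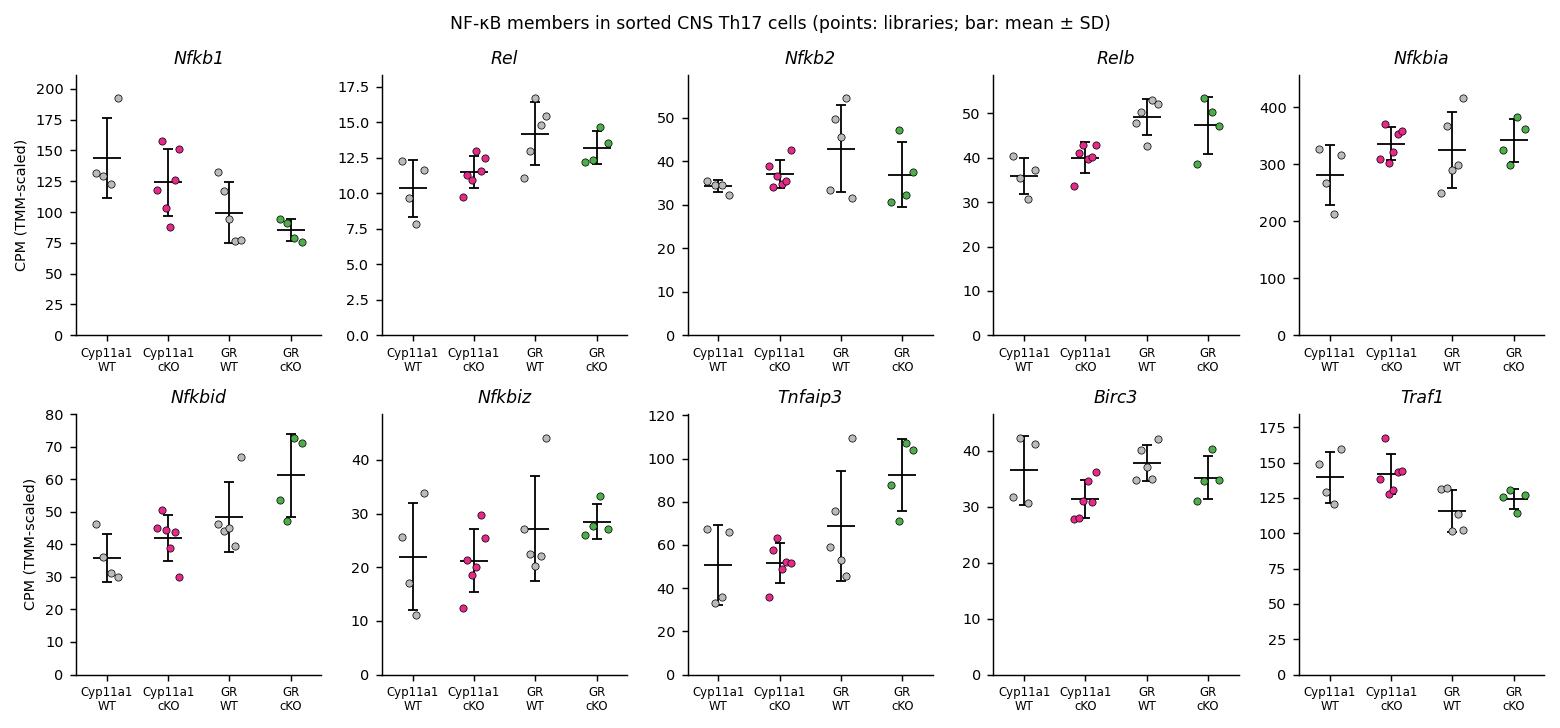
Level of each member (y axis, CPM scaled by TMM within each experiment) in sorted CNS cells of the 4 genotype groups (x axis), with 1 point per library and bars at the mean ± SD. WT and cKO libraries overlap for all 10 members in both experiments, and Tnfaip3 in GR WT ranges from 45.5 to 110 CPM.

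Between the libraries labelled Cyp11a1 WT and Cyp11a1 cKO, no member changed past the threshold. By edgeR 0 of 10 members passed, against 0.178% of all genes. At an unadjusted p under 0.05 there were 1 of 10 members and 810 of all 10125 genes. DESeq2 likewise called 0 members. WT and cKO libraries overlapped for all 10, while 1.97% of all genes did not overlap.

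Nfkbia was the member with the unadjusted p under 0.05. It read 327, 267, 212 and 316 CPM in WT, and in cKO its lowest value was 301, its median 338 and its highest 371 CPM. The log2 value was 0.26 ± 0.11 (95% interval 0.02 to 0.50, edgeR adjusted p = 0.582). It was 0.14 without WT 3, the lowest library, and 0.02 when the myeloid sum entered the fit as a covariate. That sum was higher in every cKO library than in any WT library. The sum of 7 Th17 markers was 236 to 327 CPM in WT and 135 to 232 CPM in cKO, without overlap. That of 8 NK and CD8 T cell markers was 79.8 to 340 CPM in WT and 208 to 503 CPM in cKO, with overlap. Gzma held most of the latter sum, at means of 94.4 CPM in WT and 238 CPM in cKO. Of the 5 NK and CD8 T cell markers tested, 3 had a log2 value above 0 and 2 below, and 0 passed. The part of these marker sums in the Nfkbia value was not tested.

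For Tnfaip3 the Cyp11a1 WT libraries fell into a high and a low pair, 67.3 and 66.0 against 33.3 and 36.0 CPM, and the cKO libraries lay between 36.0 and 63.4 CPM. Its log2 value was 0.04 ± 0.21, with a 95% interval of -0.42 to 0.49. Nfkb1 read 132, 129, 123 and 192 CPM in WT and 87.8 to 158 CPM in cKO, a log2 value of -0.21 ± 0.17 (edgeR adjusted p = 0.82) that was -0.045 without WT 4. Predicted genes took 40.55% of the counts of that library, the largest share in the experiment, and with these genes left out of the fit the value was -0.22 (edgeR adjusted p = 0.807).

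None of the remaining members passed between these genotypes. Nfkb2 was at 34.2 ± 1.36 CPM in WT (n = 4) and 37.1 ± 3.15 CPM in cKO (SD, n = 6), a log2 value of 0.11 ± 0.09. Relb was at 0.16 ± 0.10, Rel at 0.16 ± 0.16, Nfkbid at 0.23 ± 0.15, Nfkbiz at -0.02 ± 0.29, Birc3 at -0.21 ± 0.12 and Traf1 at 0.03 ± 0.10. Of the other pathway genes, 1 of 20 receptor and adaptor genes passed, against 0.178% of all genes. This was the TNF receptor family gene Tnfrsf25, which fell by 0.72 ± 0.13 (from 55.9 to 34.0 CPM, edgeR adjusted p = 0.0456). Its call was not followed through the alternative fits. In these, the calls over all genes ranged from 9 to 22 with a library left out and from 1 to 63 over the other settings. The part of the marker sums given above in this fall was not tested. In the other 3 lists 0 of 35 passed (3 at an unadjusted p under 0.05, beside 810 of all 10125 genes). The members' median log2 value was 0.08, beside 0.00 over all genes.

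Between the libraries labelled GR WT and GR cKO there was likewise no called change. By edgeR 0 of 10 members and 0% of all genes passed, with 0 members and 870 genes at an unadjusted p under 0.05. The targeted gene Nr3c1, at means of 14.95 CPM in WT and 8.43 CPM in cKO, was among the genes that did not pass. The absence of calls by edgeR thus does not show that the members were unchanged. DESeq2 called 3 genes, of which 0 were members. All 10 members overlapped between the genotypes, while 2.25% of all genes did not.

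The widest differences were those of 2 feedback inhibitors. Tnfaip3 read 58.9, 75.8, 53.2, 45.5 and 110 CPM in GR WT and 87.7, 71.1, 107 and 104 CPM in GR cKO. The log2 value was 0.44 ± 0.24 (95% interval -0.09 to 0.97, edgeR adjusted p = 0.59). Nfkbid read 46.2, 44.2, 45.1, 39.4 and 67.0 CPM in WT and 53.5, 47.3, 72.8 and 71.1 CPM in cKO, a log2 value of 0.34 ± 0.18 (95% interval -0.06 to 0.75, edgeR adjusted p = 0.58).

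The libraries with the 3 highest values of both genes, WT 5, cKO 3 and cKO 4, also had the 3 highest myeloid marker sums, 29956, 29957 and 29153 CPM, against 9300 to 26225 CPM in the others. When that sum entered the fit as a covariate, the log2 values were 0.16 for Tnfaip3 (edgeR adjusted p = 0.999) and 0.14 for Nfkbid (0.999). Without WT 5 they were 0.66 (0.271) and 0.48 (0.271). The library with the next highest sum, WT 1 at 26225 CPM, had 58.9 CPM of Tnfaip3 and 46.2 CPM of Nfkbid. The part of myeloid RNA in these values was not tested.

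None of the other 8 members passed between the GR WT and GR cKO libraries. Nfkb1 was at -0.23 ± 0.18 and Nfkb2 at -0.22 ± 0.19, Nfkb2 being spread from 31.5 to 54.5 CPM within WT. Nfkbia was at 0.08 ± 0.15, Nfkbiz at 0.09 ± 0.22, Rel at -0.10 ± 0.15, Relb at -0.05 ± 0.12, Birc3 at -0.10 ± 0.12 and Traf1 at 0.10 ± 0.12. Of the pathway lists, 0 of 57 measured genes passed (11 at an unadjusted p under 0.05, beside 870 of all 10597 genes).

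The make-up of the system differed between the culture and the CNS tables, which differ in Th17 type, host, disease and experiment, all of which cannot be told apart. Per kilobase, Nfkbia was first and Rel last in all WT and culture groups. Nfkbid, of rank 8 in Ctrl, had rank 3 in Cyp11a1 WT at 15.3 CPM per kb. There its libraries overlapped with those of Traf1 above and of Nfkb1 below. In GR WT it had rank 2 at 20.6 CPM per kb. Myeloid RNA was present in both groups, the marker sum being 1140 to 1245 CPM in Cyp11a1 WT and 9300 to 29956 CPM in GR WT. Nfkb2, of rank 3 in Ctrl at 24.2 CPM per kb, had rank 6 in both CNS WT groups, at 7.47 and 9.37 CPM per kb. In both, its libraries overlapped with those of the next lower member.

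The balance of the noncanonical to the canonical pair was described for each library as log2 of the summed Nfkb2 and Relb counts over the summed Nfkb1 and Rel counts. This ratio is not corrected for gene length, so its sign is not a ratio of transcripts. It was 0.764, 0.671 and 0.884 in Ctrl, 0.835, 0.599 and 0.339 with Dex, 0.958, 1.02 and 1.19 with TGF-β1, and 0.783, 0.938 and 0.923 with both. The TGF-β1 libraries were thus above all others in culture, and the Dex libraries overlapped with Ctrl.

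In the Cyp11a1 experiment the ratio was between -1.55 and -0.92 in WT and between -1.17 and -0.44 in cKO, and in the GR experiment between -0.82 and 0.23 in WT and between -0.63 and -0.04 in cKO. All 10 libraries of the Cyp11a1 experiment and all 9 of the GR experiment were below all 12 culture libraries. The myeloid marker sum was 1140 to 2320 CPM in the Cyp11a1 experiment and 9300 to 29957 CPM in the GR experiment. In culture it was 315.7 to 429.9 CPM. The part of myeloid RNA in the ratio was not tested. The genotypes overlapped in both experiments.

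**Figure D5:**
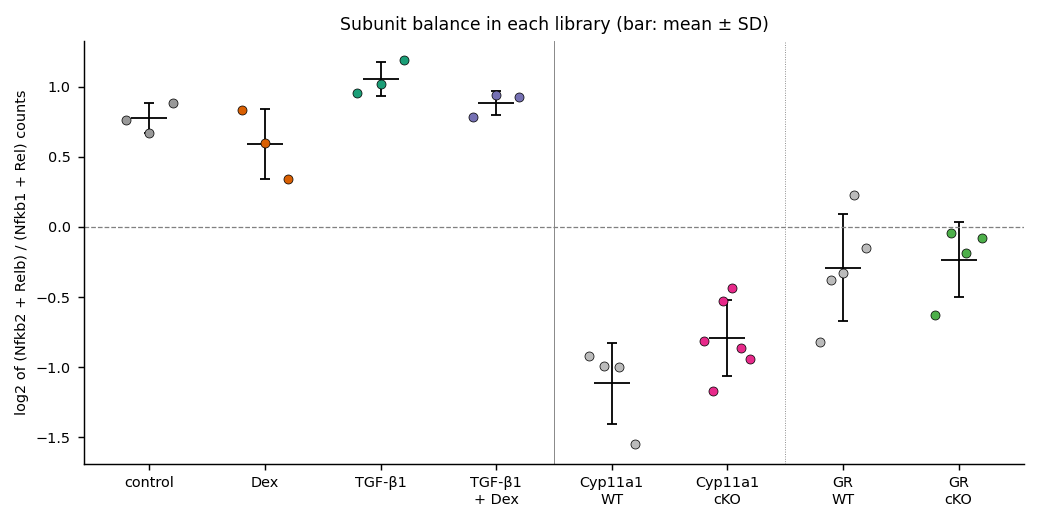
Log2 ratio of summed Nfkb2 and Relb counts to summed Nfkb1 and Rel counts (y axis) for each library, by group (x axis), with 1 point per library and bars at the mean ± SD. Culture libraries lie between 0.339 and 1.19, all 10 libraries of the Cyp11a1 experiment lie below 0, and those of the GR experiment lie between -0.822 and 0.23. WT and cKO overlap in both.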

How the data were processed

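RNA was measured in 31 libraries by a modified SMART-Seq2 protocol with Nextera XT tagging, which keeps no strand. The authors deposited counts per gene symbol as whole numbers, without normalisation, in 1 table per experiment. RSEM 1.3.3 and the build mm10 appear in the submitters' processing notes. The aligner and annotation are not given in the sources used here. Columns were matched to libraries by label, and 0 columns were left over.

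Each experiment was fitted alone in R 4.3.3 with edgeR 4.0.16 (filterByExpr, TMM, robust quasi-likelihood F test, Benjamini-Hochberg over all genes tested, threshold 0.05). The 4 culture groups shared 1 fit. Levels are CPM as mean ± SD, and effects are log2 fold changes ± SE. Exon lengths and overlaps came from GENCODE M21 on GRCm38. The steps were checked on simulated data.

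The members, pathway lists and marker lists were chosen with earlier results of these data known. Named were all members, up to 4 passing genes per list and direction, Nr3c1, Cyp11a1 and the 2 genes most like each member. Rela was added outside this rule. 1 pathway list is not reported here. Replicate pairs differed by more than sampling noise (chi-square per degree of freedom at least 2.793). Replicate numbers were not taken as pairs, although in culture 9 of 12 libraries correlated best with a library of their own number. Alternatives were other scalings and filters, DESeq2 1.42.0, limma 3.58.1 voom with sample weights, a replicate block, the compared groups alone, fits without predicted genes, a myeloid covariate, and each library left out. They were read for the members and for the count over all genes, so calls of pathway list genes rest on the main fit alone.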

Additional observations from a re-analysis of the deposited data

Results flagged for a closer look

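In 3 of 40 combinations of a member and a CNS group, 1 library lay far from the others by Dixon's criterion, which chance alone passes in about 1 of 20 groups. Nfkb1 read 192 CPM in Cyp11a1 WT 4, where the next library was at 132 and the lowest at 123 CPM. Relb read 33.6 CPM in Cyp11a1 cKO 1, where the next library was at 39.7 and the highest at 42.9 CPM. Nfkbid read 67.0 CPM in GR WT 5, where the next library was at 46.2 CPM.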

How the results depend on the processing

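No called member changed direction under any alternative run. The number of members passing with Dex (1) was 2 with RLE scaling, 2 with a mean count of at least 50, 2 by DESeq2, 0 without a scaling factor, 0 with the compared groups alone and 0 to 1 with a library left out. Nfkb2 is the member gained (adjusted p = 0.0486, 0.0347 and 0.0462). With TGF-β1 (2) it was 0 without a scaling factor, 1 without the low-count filter, 1 by DESeq2, 1 with the compared groups alone and 1 with any library left out. For both agents against Ctrl (3) it was 1 with the compared groups alone, 1 to 3 with a library left out and 1 to 4 over the other settings, Nfkb2 being gained with RLE scaling (adjusted p = 0.0497), a mean count of at least 50 (0.0251), no predicted genes (0.0446), without Ctrl 3 (0.0489) and without the first library of the combination (0.0454). For both against TGF-β1 (1) it was 0 without a scaling factor, 2 by DESeq2, 0 with the compared groups alone and 0 to 1 with a library left out, and for both against Dex (1) it was 0 without a scaling factor. It stayed at 0 in all fits of the interaction and of both genotypes. The causes were not tested.

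Over all genes the counts of calls moved by more than 1.5 times as follows. Without a scaling factor there were 55 for Dex (189), of which 67.3% were higher against 50.3%, 177 for TGF-β1 (340), 385 for both (646), 15 for both against TGF-β1 (55), of which 73.3% were higher against 58.2%, 132 for both against Dex (271) and 2 for GR (0). By DESeq2 there were 94 for both against TGF-β1, 63 for Cyp11a1 (18), 3 for GR and 6 for the interaction (0). For Cyp11a1 there were 33 without the low-count filter, 5 by limma voom and 3 with the myeloid covariate. The interaction gave 4 without the filter, and both against TGF-β1 gave 22 with the compared groups alone. With a library left out the counts were 78 to 129 for Dex, 219 to 259 for TGF-β1, 425 to 502 for both, 24 to 35 for both against TGF-β1, 152 to 203 for both against Dex, 0 to 1 for the interaction, 9 to 22 for Cyp11a1 and 0 to 1 for GR.

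No pair of culture or Cyp11a1 libraries with the same replicate number, and 1 of 4 in GR, deviated together at r over 0.1 (r between -0.0188 and 0.0732 in culture, -0.139 and -0.0425 in Cyp11a1, -0.238 and 0.125 in GR), so the numbers were not taken as pairs. As a hint from the data, in culture 9 of 12 libraries correlated best with their own number, in Cyp11a1 0 of 8 and in GR 1 of 8. With a replicate block, Dex gave 1 member and TGF-β1 gave 2, with Nfkbia (0.24, adjusted p = 0.0132) in place of Relb (0.43, adjusted p = 0.0634). The block gave 1 gene for Cyp11a1 and 2 for the interaction.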
